A study of Mus musculus with 2 samples.

Results

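The DNA replication genes described here are 42 of the 32589 genes in the deposited count tables. They were chosen as genes of the replication fork and its supply, by their known roles. Single-nucleus RNA sequencing was done on ureters of newborn mice (P0), with unique molecular identifiers (UMIs) that count captured RNA molecules. The knockout pool held 14 mice of genotype Pax2-cre/+;DNp63fl/fl;R26mTmG/+ (DNp63cKO) and the control pool 13 mice whose genotype is labelled wt, with 1 library from each pool. The cre driver and the mTmG reporter may therefore also differ between the pools. Pax2-cre acts in the epithelium that grows from the nephric duct, so muscle, fibroblasts and endothelium of the same library are not its intended target, and pooling leaves no value per mouse. Each difference below lies between 1 library and 1 library. No test of genotype is possible, and the 95% intervals (Poisson for a level, conditional binomial for a ratio, exact Clopper-Pearson for a share) cover counting error only.

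Replication is prepared when the origin recognition complex, with Cdc6 and Cdt1, loads the ring of Mcm2 to Mcm7 onto DNA. Cdc45 and the GINS complex turn that ring into a moving helicase, the clamp Pcna holds polymerases on the template, and ribonucleotide reductase and thymidylate synthase supply the nucleotides. Many of these genes are transcribed by E2F factors as a cell passes from G1 into S phase, and in urothelium dividing cells are mostly found beneath the uroplakin-covered surface layer.

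The E2F-type motif searched was TTTCCCGC, TTTCGCGC, TTTGCCGC or TTTGGCGC, on either strand (reverse complements GCGGGAAA, GCGCGAAA, GCGGCAAA and GCGCCAAA). Promoter windows from RefSeq on GRCm38.p6, from 250 bases before to 50 bases after a gene's start, were found for 35 of the 42 members. Of these, 17 (48.6%) held the motif, against 704 of 27025 genes with a window (2.60%). Some matches overlap each other on opposite strands, and a match is a description of letters, not a bound site. The 4 promoters below are those of the licensing factor Cdc6, the helicase subunits Mcm5 and Mcm6 and the primase-polymerase subunit Pola1, shown because their motif lies upstream of the RefSeq start and outside exons of GENCODE M21. For Cdc6 the annotations differ: GENCODE starts the gene at 98907801, so these bases lie inside the gene there, between exons. Each is the 150 bases before the RefSeq start, 5′ to 3′ on the gene's strand, with motif letters in capitals: Mcm6 from chr1:128359706-128359855 (minus strand), Mcm5 from chr8:75109359-75109508 (plus strand), Pola1 from chrX:93632156-93632305 (minus strand) and Cdc6 from chr11:98908001-98908150 (plus strand).
Mcm6: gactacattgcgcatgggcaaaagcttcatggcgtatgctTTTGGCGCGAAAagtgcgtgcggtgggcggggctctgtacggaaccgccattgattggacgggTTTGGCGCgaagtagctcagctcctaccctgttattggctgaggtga
Mcm5: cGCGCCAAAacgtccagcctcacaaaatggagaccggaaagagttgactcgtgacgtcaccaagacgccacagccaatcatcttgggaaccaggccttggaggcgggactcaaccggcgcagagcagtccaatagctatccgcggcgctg
Pola1: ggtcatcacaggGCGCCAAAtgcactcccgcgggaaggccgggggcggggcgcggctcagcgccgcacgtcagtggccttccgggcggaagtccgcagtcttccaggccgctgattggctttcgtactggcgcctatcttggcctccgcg
Cdc6: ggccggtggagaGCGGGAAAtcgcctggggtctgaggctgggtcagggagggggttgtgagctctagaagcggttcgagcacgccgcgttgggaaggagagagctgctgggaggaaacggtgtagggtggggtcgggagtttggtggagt
The Mcm6 window holds 3 matches, of which 2 overlap and share capitals, and the others hold 1 each in these bases.

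The DNp63cKO library held 5528 nuclei and 9859451 UMIs (median 1298 per nucleus) and the control library 9062 nuclei and 16063644 UMIs (median 1125). They shared 58 barcodes. Nuclei were clustered without the member and mitosis genes, and classes are named by markers. To put nuclei on equal footing, each was thinned to 700 UMIs, which left out 163 of 2221 DNp63cKO and 872 of 5114 control urothelium-like nuclei. Levels are UMIs scaled to a common total of thinned UMIs (CPM), and ratios are DNp63cKO over control. Trp63, the targeted gene, counted over all its isoforms and exons, had 135 and 198 CPM by all UMIs, without thinning, in 2221 and 5114 urothelium-like nuclei (log2 ratio -0.55, interval -0.69 to -0.41). Class cluster 2, a urothelium-like cluster, held 977 DNp63cKO but 107 control nuclei, so that the pooled class rests on different clusters in the 2 libraries. An estimated 31.3% of UMIs in DNp63cKO and 27.1% in control came from free RNA, judged by uroplakin UMIs in fibroblast-like nuclei.

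In urothelium-like nuclei as a whole the replication genes summed to nearly the same level in both libraries, 2098 CPM for DNp63cKO and 2074 CPM for control (3022 and 6159 UMIs). The log2 ratio was 0.02 (interval -0.05 to 0.08). By all UMIs, without thinning, it was 0.09 (0.05 to 0.13), so whether the interval includes 0 depends on depth. Within the class the layers differed: summed member level in basal-like nuclei was 3625 CPM in DNp63cKO and 3022 CPM in control, a log2 ratio of 0.26 (0.19 to 0.34), while superficial-like nuclei had 1119 and 1129 CPM, a ratio of -0.01 (-0.13 to 0.10). Basal-like nuclei made up 39.1% of the DNp63cKO urothelium and 49.9% of the control urothelium. A higher level in a smaller basal share and the pooled value near 0 are thus seen together, and with sub-clusters weighted alike in both libraries the pooled ratio was 0.13. Without class cluster 2 it was 0.43, a change that follows in part from removing 977 of 2221 DNp63cKO nuclei. The layer ratios without that cluster were 0.31 in basal-like and 0.04 in superficial-like nuclei.

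**Figure D1:**
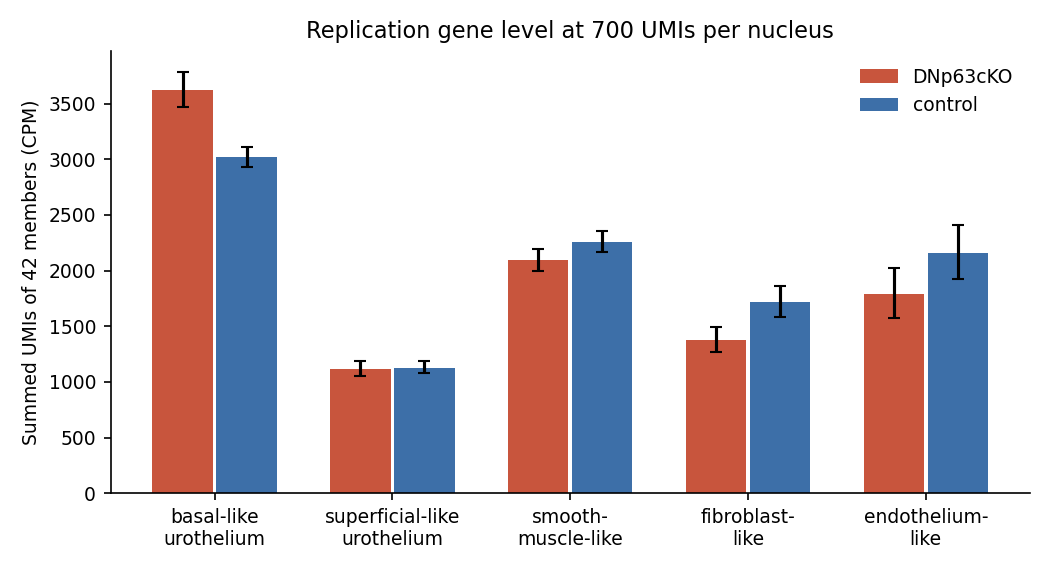
Summed level of the 42 replication genes (vertical axis, CPM at 700 UMIs per nucleus) in 5 groups of nuclei, DNp63cKO in red and control in blue, with 95% Poisson intervals of the counts. Basal-like urothelium is highest, at 3625 and 3022 CPM, and superficial-like urothelium lowest, at 1119 and 1129 CPM, in both libraries.

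The basal-like layer is the union of urothelial sub-clusters U2, U3, U4 and U6, and the superficial-like layer that of U0, U1 and U5. U2 was led by the basal keratins Krt5 and Krt14 and the Notch ligand Jag2, and U3 by mitosis genes (Mki67, Top2a, Aspm). U6, with 114 nuclei, was placed with the basal-like nuclei by its markers although glial genes (Cdh19, Ptprz1) led it, and U4 was led by haemoglobin and muscle genes before its keratins. The marker lists behind these names hold genes that the deletion could itself alter.

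The members separated the urothelial layers in both libraries. Summed level was 3.24-fold higher in basal-like than in superficial-like nuclei in DNp63cKO and 2.68-fold higher in control, and 42 of 42 members were higher in basal-like nuclei in each library. Ordering nuclei by their uroplakin UMIs gave a similar fall. Uroplakins are among the superficial layer markers that name the layers, so this order is not a separate check of the layer difference. With 0 to 2 uroplakin UMIs of 700, summed member level was 3432 CPM in DNp63cKO and 2791 CPM in control. With 3 to 5 it was 2455 and 2345 CPM, and with 6 to 9 it was 1501 and 1262 CPM. Nuclei with 10 or more had 1088 and 1150 CPM, so the level fell from range to range in both libraries. The DNp63cKO value was above the control value beyond counting error in the ranges 0 to 2 (log2 0.30, 0.20 to 0.40) and 6 to 9 (0.25, 0.08 to 0.42), and not in the ranges 3 to 5 (0.07, -0.05 to 0.18) and 10 or more (-0.08, -0.26 to 0.10).

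**Figure D2:**
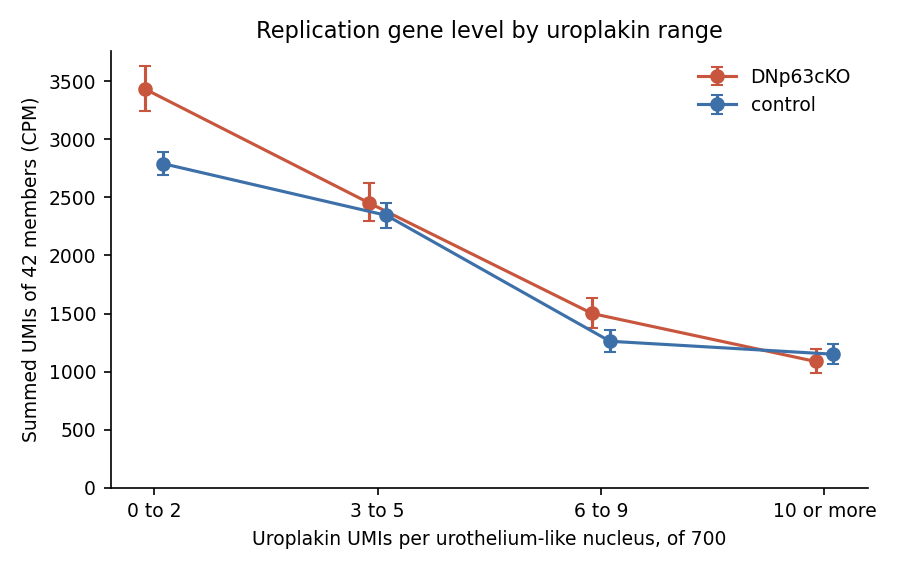
Summed member level (vertical axis, CPM) of urothelium-like nuclei by their number of uroplakin UMIs of 700 (horizontal axis), DNp63cKO in red and control in blue, with 95% Poisson intervals. Both lines fall, from 3432 and 2791 CPM at 0 to 2 uroplakin UMIs to 1088 and 1150 CPM at 10 or more.

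Urothelial sub-clusters did not share 1 direction. In the keratin-led U2 the summed member level was 3362 CPM in DNp63cKO and 2561 CPM in control (log2 0.39, 0.29 to 0.49; 495 and 1370 nuclei). In U3, led by mitosis genes, levels were the highest of the sub-clusters in both libraries, 4562 and 4928 CPM, and the ratio was -0.11 (-0.24 to 0.02). U4 had a ratio of -0.10 (-0.44 to 0.23) and U6, with 19 and 59 nuclei at this depth, 0.97 (0.35 to 1.57). Among superficial-like sub-clusters U1 was lower in DNp63cKO (1317 and 1572 CPM, log2 -0.26, -0.48 to -0.03), and the intervals of U0 (-0.08) and U5 (0.21) included 0. Within the basal-like layer the summed ratio was thus above 0 beyond counting error in U2 and U6 and not in U3 and U4. Without U3 the basal-like ratio was 0.37.

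Nuclei with Y-linked and no Xist UMIs did not show the basal-like difference. There the summed level was 3073 CPM in DNp63cKO and 3221 CPM in control, a ratio of -0.07 (-0.29 to 0.15; 126 and 220 nuclei). Nuclei with 1 or more Xist UMIs had 3923 and 2914 CPM, a ratio of 0.43 (0.34 to 0.52; 524 and 1508 nuclei). The 2 intervals do not overlap, and the first lies below the ratio of all basal-like nuclei. The part of sex makeup in the basal-like result was not tested. Over all nuclei, 13.3% of DNp63cKO and 9.65% of control nuclei carried Y-linked and no Xist UMIs.

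Of the 42 members, all with 20 or more UMIs in basal-like nuclei, 33 were above 0 on the log2 (CPM + 5) scale, where 48.0% of all 11029 genes measured there were above 0. Their median was 0.23, against -0.02 over all measured genes. Past 1.5-fold, 6 members were higher (7.52% of all genes) and 2 lower (8.59% of all genes). In superficial-like nuclei 37 members were measured, 19 of them above 0 (48.0% of all genes), with 2 past 1.5-fold higher (7.02%) and 2 lower (8.49%). In the pooled urothelium-like class 21 of 42 were above 0 (47.5% of all genes), 1 was past 1.5-fold higher (5.16%) and 1 lower (5.82%). The members share nuclei and libraries, so they are not independent of each other.

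**Figure D3:**
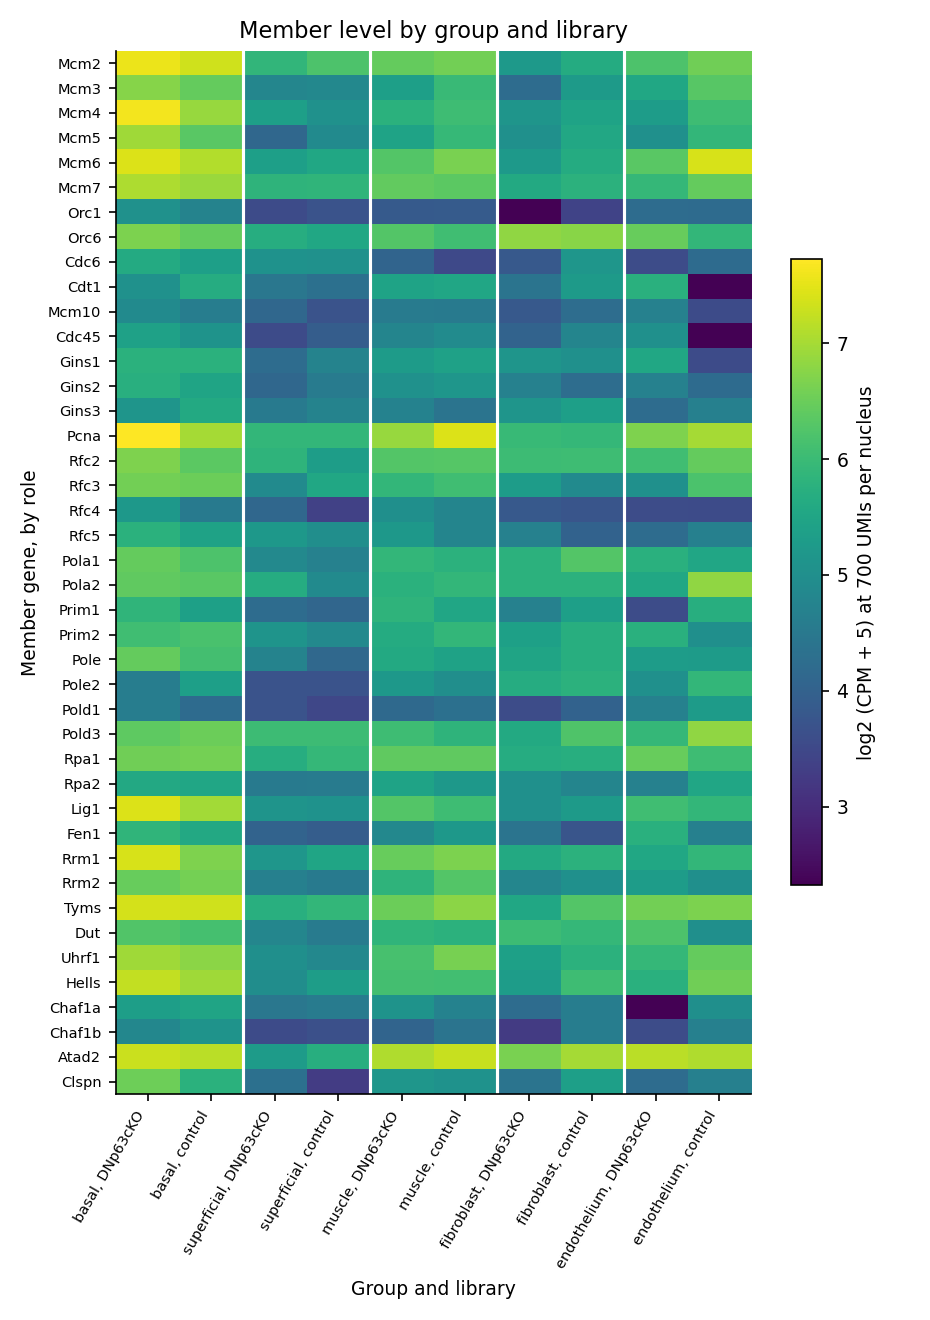
Level of each of the 42 members (rows, grouped by role) in 5 groups of nuclei and both libraries (columns), as log2 (CPM + 5) at 700 UMIs per nucleus, brighter for higher. The basal-like columns are brightest for most members, with Pcna (206 and 122 CPM) and Mcm4 (192 and 113 CPM) among the brightest.

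The helicase ring was among the roles that were higher in basal-like DNp63cKO nuclei. Its 6 subunits summed to 894 CPM in DNp63cKO and 675 CPM in control, a log2 ratio of 0.40 (0.25 to 0.56). Mcm4 (mm10 chromosome 16, 15623897 to 15637400, minus strand) had 192 and 113 CPM (108 and 167 UMIs), a ratio of 0.77 (0.41 to 1.13). Mcm5 stood at 119 and 75.5 CPM (0.66, 0.20 to 1.11). Both were higher in the DNp63cKO library beyond counting error, and the other 4 subunits had positive ratios whose intervals included 0. Mcm6 was at 169 and 133 CPM (0.35, -0.02 to 0.71), Mcm3 at 0.31, Mcm2 at 0.23 and Mcm7 at 0.15. In superficial-like nuclei the ring summed to 214 and 241 CPM (-0.17, -0.43 to 0.09). Mcm5, whose promoter is printed above, there went the other way, at 12.5 and 24.9 CPM (-0.99, -2.11 to 0.01).

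Within the keratin-led U2, 3 subunits of the ring had intervals above 0. Mcm5 stood at 136 and 66.7 CPM (1.02, 0.45 to 1.59), Mcm4 at 193 and 107 CPM (0.85, 0.38 to 1.31) and Mcm2 at 202 and 138 CPM (0.55, 0.11 to 0.98). In the mitosis-gene-led U3 the same genes had ratios of -0.0047, 0.43 and -0.60, each with an interval that included 0.

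Origin licensing genes, which load the ring, had a summed ratio whose interval included 0: 197 CPM in DNp63cKO and 186 CPM in control basal-like nuclei (0.09, -0.24 to 0.41). Orc6, a subunit of the origin recognition complex, was the most abundant of them, at 95.9 and 81.6 CPM. Orc1 stood at 28.4 and 21.6 CPM and the loading ATPase Cdc6 at 44.4 and 36.4 CPM. Cdt1, the loader that is destroyed once S phase begins, was 1 of the 2 members past 1.5-fold lower, at 28.4 and 45.9 CPM (16 and 68 UMIs), and its interval reached 0 (-0.69, -1.58 to 0.11). The helicase activation genes, Mcm10, Cdc45 and the GINS subunits, summed to 190 and 181 CPM (0.07, -0.27 to 0.40), with Gins3 lowest (30.2 and 43.8 CPM; -0.54, -1.40 to 0.25).

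The sliding clamp and its loader were higher in basal-like DNp63cKO nuclei, at 476 against 343 CPM (0.47, 0.26 to 0.69). Pcna, the clamp itself (mm10 chromosome 2, 132249162 to 132253314, minus strand), had 206 CPM in the DNp63cKO and 122 CPM in the control library (116 and 181 UMIs; 0.76, 0.41 to 1.10). In U2 it stood at 211 and 82.4 CPM (1.36, 0.88 to 1.83), and in U3 at 215 and 226 CPM (-0.07, -0.70 to 0.53), so that DNp63cKO U2 nuclei had a Pcna level close to that of U3 and control U2 nuclei did not. Of the clamp loader subunits, Rfc4 was at 32.0 and 18.2 CPM (0.81, -0.13 to 1.73), Rfc5 at 0.37, Rfc2 at 0.33 and Rfc3 at 0.07, all with intervals that included 0. In superficial-like nuclei Pcna was at 54.7 and 54.5 CPM (0.01, -0.54 to 0.54) and Rfc3 was lower, at 25.1 and 41.7 CPM (-0.74, -1.51 to -0.01).

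Compared per length in urothelium-like nuclei, over both libraries and all UMIs, Pcna was the highest member by gene span (24.8 CPM per kb) and by exonic length (43.0 CPM per kb). The lowest member depended on the length used: Pola1, which spans 327 kb, by span (0.117 CPM per kb) and Mcm10 by exonic length (1.84 CPM per kb). CPM hardly followed length across the 42 genes (Spearman correlation 0.02 with span and 0.22 with exonic length, as a description), so the order per kb of span mostly follows the spans.

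Polymerase genes, summed over 8 subunits, stood at 476 and 449 CPM in basal-like nuclei (0.08, -0.13 to 0.29), an interval that includes both 0 and the ratio of all members. Pole2, the second subunit of the leading-strand polymerase, was the other member past 1.5-fold lower, at 19.5 and 36.4 CPM (11 and 54 UMIs; -0.90, -1.98 to 0.05). Prim1, the catalytic primase subunit, was at 53.3 and 37.1 CPM (0.52, -0.17 to 1.19), and Prim2, its partner, at 62.2 and 66.8 CPM (-0.10). In superficial-like nuclei the polymerase genes stood at 211 and 170 CPM (0.31, 0.03 to 0.59), with Pola2 at 45.6 and 24.9 CPM (0.87, 0.19 to 1.56).

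Genes for single-stranded DNA and Okazaki fragments summed to 354 and 297 CPM in basal-like nuclei (0.25, 0.00 to 0.49). The ligase Lig1, which seals the fragments, carried most of that, at 169 and 121 CPM (0.48, 0.10 to 0.84), and stood at 179 and 107 CPM in U2 (0.74, 0.26 to 1.21). The flap nuclease Fen1 was at 53.3 and 43.2 CPM (0.30, -0.37 to 0.95). Rpa1 and Rpa2, which coat single strands, had ratios of -0.05 and 0.05.

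Nucleotide supply genes differed among themselves. Rrm1, the large subunit of ribonucleotide reductase, stood at 163 and 97.8 CPM in basal-like nuclei (0.74, 0.35 to 1.13), and at 136 and 65.7 CPM in U2 (1.05, 0.47 to 1.61). Rrm2, the small subunit of the same enzyme, stood at 83.5 and 91.1 CPM (-0.12, -0.64 to 0.36). The thymidylate synthase Tyms was at 160 and 157 CPM (0.03, -0.34 to 0.38) and the dUTPase Dut at 71.1 and 64.8 CPM (0.13, -0.44 to 0.68). The role summed to 478 and 411 CPM (0.22, 0.01 to 0.43), and only Rrm1 of the 4 had an interval above 0.

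Chromatin duplication genes stood at 473 and 431 CPM (0.13, -0.08 to 0.34), with the hemimethylated-DNA reader Uhrf1 at 119 and 105 CPM, the remodeller Hells at 144 and 119 CPM and Atad2 at 151 and 138 CPM. The histone chaperone subunits Chaf1a and Chaf1b had ratios of -0.16 and -0.33 with intervals that included 0. Clspn, the claspin gene of the replication checkpoint (mm10 chromosome 4, 126556935 to 126593903, plus strand), was the member with the highest ratio in basal-like nuclei, at 87.1 and 49.2 CPM (49 and 73 UMIs; 0.82, 0.27 to 1.36). It was also the member past 1.5-fold higher in the pooled class (43.0 and 26.9 CPM; 0.68, 0.17 to 1.17). In superficial-like nuclei it stood at 14.8 and 4.71 CPM on 13 and 7 UMIs (1.65, 0.22 to 3.22). By all UMIs, 28 and 37 in number, its interval there included 0 (0.67, -0.09 to 1.42).

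**Figure D4:**
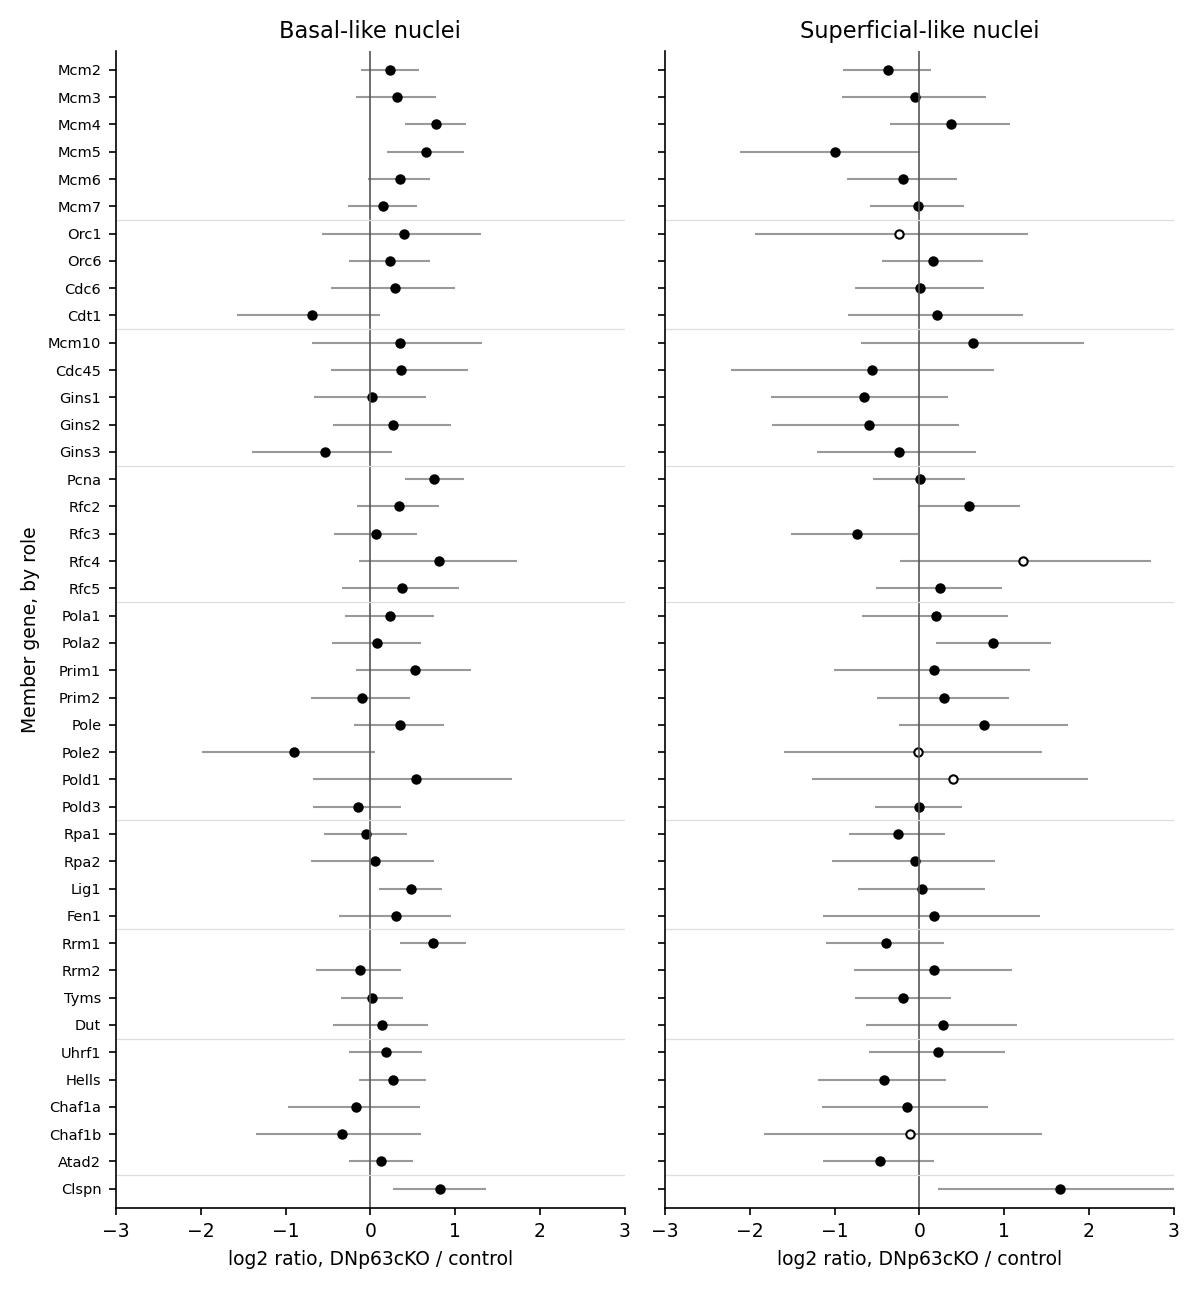
Log2 ratio of each member, DNp63cKO over control (horizontal axis), in basal-like and superficial-like nuclei, with 95% conditional binomial intervals drawn to at most 3 on either side; open circles have fewer than 20 UMIs, and thin lines separate the roles. In basal-like nuclei Mcm4, Mcm5, Pcna, Lig1, Rrm1 and Clspn have intervals above 0 and no member has one below 0.

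Nuclei were also counted by how many members they held. A share with 2 or more members rises with the summed level alone, so it does not show that members appear together. At 700 UMIs, 2 or more members had a UMI in 56.2% of basal-like DNp63cKO nuclei (452 of 804; 52.7 to 59.7%) and 47.7% of control nuclei (1011 of 2118; 45.6 to 49.9%). In superficial-like nuclei the shares were 17.5% (15.4 to 19.7%) and 16.5% (15.0 to 18.2%). Without thinning the basal-like shares were 70.8% and 63.1% and the superficial-like shares 49.8% and 50.7%. Neuron-like nuclei, taken as the class that should lack these genes, had shares of 31.6% (6 of 19; 12.6 to 56.6%) and 35.7% (5 of 14; 12.8 to 64.9%), at median depths of 1141 and 1108 UMIs against 1249 and 1043 in basal-like nuclei. These few nuclei also carried mitosis genes, at 1429 and 1939 CPM, so they are no clean zero and set no background level. The superficial-like and basal-like shares at 700 UMIs all lie inside the wide neuron-like intervals, the DNp63cKO basal-like share just below the upper limit. So few nuclei cannot place these shares above a background, and neither expression nor a library difference is read from them. Free RNA, at the estimated share of all nuclei, would give member levels of 609 CPM in DNp63cKO and 533 CPM in control by all UMIs. Superficial-like nuclei had 1117 and 1070 CPM on that scale. At 700 UMIs neuron-like nuclei had 1729 CPM (1096 to 2595) and 1837 CPM (1089 to 2903), on 23 and 18 member UMIs. The superficial-like 1119 and 1129 CPM at that depth were lower, so a superficial-like level above background is not shown.

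Within basal-like nuclei the variance of member UMIs per nucleus was 2.30 times the mean in both libraries, where UMIs spread at random would give 1. Superficial-like nuclei had 1.49 and 1.54, smooth-muscle-like 1.65 and 1.53, fibroblast-like 1.62 and 1.75 and endothelium-like 1.57 and 2.17. The intervals of levels and ratios take UMIs as independent and are not widened for this uneven spread. An interval that lies close to 0 is therefore weak even as counting error. Other replication genes, a list of 38 that are not members, were 2.27-fold higher in DNp63cKO and 2.11-fold higher in control in basal-like nuclei with 2 or more members than in those with none. Mitosis genes were 1.28-fold and 1.66-fold higher by the same split. In nuclei without members they had 2555 CPM (DNp63cKO) and 1330 CPM (control), and 3268 and 2211 CPM in nuclei with 2 or more.

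Basal-like nuclei with UMIs of both programmes were more frequent in DNp63cKO. Nuclei with 2 or more members and 2 or more mitosis genes made up 23.3% of DNp63cKO (20.4 to 26.3%) and 13.9% of control (12.4 to 15.4%). Nuclei with 2 or more members only were at 33.0% and 33.9%, and nuclei with mitosis genes only at 12.2% and 8.17%. Nuclei with neither made up 31.6% and 44.1%. Mitosis UMIs were also higher in DNp63cKO among nuclei without members, as given above, which by itself moves nuclei from members only to both. The split therefore does not show in which nuclei the members differed.

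**Figure D5:**
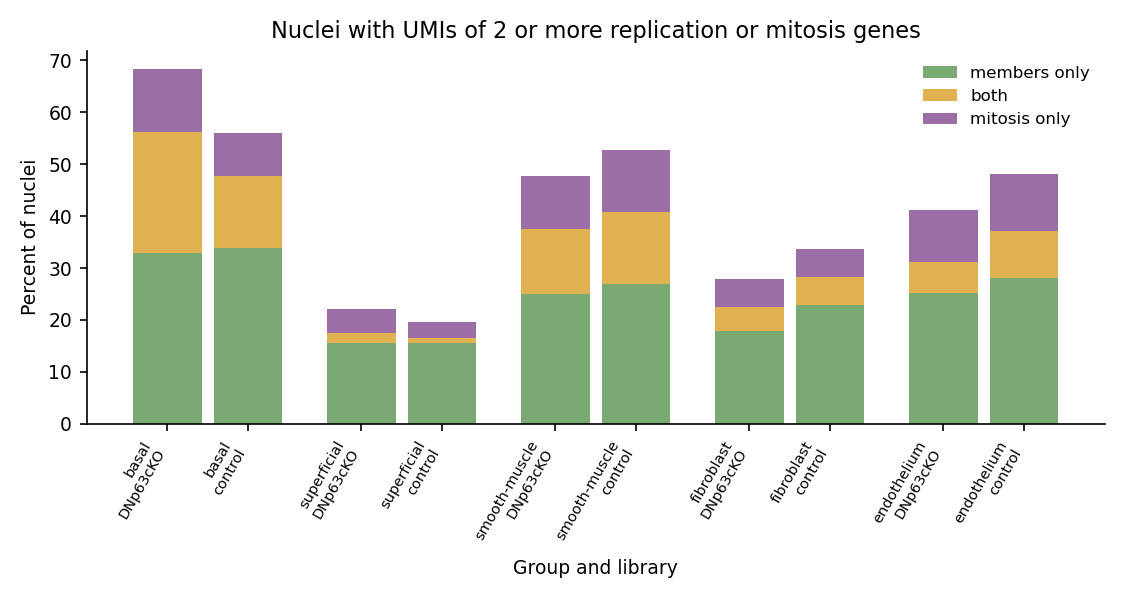
Percent of nuclei (vertical axis) with UMIs of 2 or more members only, of 2 or more mitosis genes only, or of both, by group and library, at 700 UMIs per nucleus. Among basal-like nuclei the share with both is 23.3% in DNp63cKO and 13.9% in control, and the members-only shares are 33.0% and 33.9%.

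Among other cell cycle genes, those of mitosis had a higher ratio than the members in basal-like nuclei. In basal-like nuclei 29 of 30 mitosis genes were above 0, with a summed level of 2980 CPM in DNp63cKO and 1799 CPM in control (0.73, 0.64 to 0.82). Mki67, the proliferation antigen, stood at 329 and 166 CPM (0.99, 0.70 to 1.27), the ubiquitin-conjugating enzyme Ube2c at 87.1 and 27.0 CPM (1.69, 1.06 to 2.33) and Top2a at 281 and 193 CPM (0.54, 0.25 to 0.83). The other replication genes had 25 of 37 measured above 0 and a summed ratio of 0.17 (0.07 to 0.27), with the maintenance methyltransferase Dnmt1 at 171 and 121 CPM (0.50, 0.13 to 0.86). Ratios of the mitosis list thus exceeded those of the members in the same nuclei, with intervals that do not overlap.

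G1-to-S control genes differed between the layers. In basal-like nuclei 12 of 18 were above 0 and their sum stood at 2274 and 1958 CPM (0.22, 0.12 to 0.31), with E2f1 at 51.5 and 29.7 CPM (0.80, 0.07 to 1.51) and Cdk6 at 160 and 103 CPM (0.63, 0.24 to 1.02). In superficial-like nuclei the sum was 870 and 1515 CPM (-0.80, -0.92 to -0.68). That came from cyclin D2, Ccnd2, at 219 and 867 CPM there (-1.99, -2.21 to -1.77), whereas 6 of 13 measured genes of the list were above 0. The members themselves stood at 1119 and 1129 CPM in the same superficial-like nuclei. Of the cycle exit genes, Cdkn1a, which encodes the inhibitor p21, stood at 140 and 138 CPM in basal-like and 199 and 276 CPM in superficial-like nuclei (-0.47, -0.73 to -0.21).

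Layer markers also differed between the libraries in basal-like nuclei, and not there alone. By all UMIs, without thinning, the 12 superficial layer markers summed to 14446 CPM in basal-like DNp63cKO nuclei and 9927 CPM in basal-like control nuclei, and the 12 basal layer markers to 2678 and 2375 CPM, with none of either list at 0. On the same scale the 12 smooth muscle markers were at 1734 and 1790 CPM and the 12 fibroblast markers at 1820 and 1675 CPM. The part of these levels in the member ratios was not tested. After an estimate of free RNA was taken off, the basal-like ratio was 0.37, and with clusters built without scaling genes within each library it was 0.56.

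In the 3 classes outside the epithelium compared here, the summed member level was lower in DNp63cKO. Smooth-muscle-like nuclei had 2090 CPM in DNp63cKO and 2260 CPM in control (-0.11, -0.20 to -0.02), with 18 of 40 measured members above 0 (49.6% of all genes), 0 past 1.5-fold higher (5.64%) and 1 lower (6.12%). The helicase ring stood at 362 and 438 CPM (-0.28, -0.49 to -0.06), with Mcm3 at 36.5 and 58.6 CPM (-0.68, -1.37 to -0.02). By all UMIs the interval of the ring included 0 (-0.09, -0.20 to 0.02). Pcna was at 114 and 167 CPM (-0.55, -0.93 to -0.18), the opposite direction to its basal-like ratio. Rfc5 (0.51) and Chaf1a (0.47) had the highest ratios, with intervals that included 0. The share of nuclei with 2 or more members was 37.4% and 40.7%, a difference of -3.29 points (interval -7.06 to 0.50). Both shares lie inside the neuron-like intervals. Without thinning they were 59.6% and 58.5%, the opposite order, so no difference is read from them.

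Fibroblast-like nuclei had the lowest member level outside the urothelium, 1378 CPM in DNp63cKO and 1719 CPM in control (-0.32, -0.48 to -0.15; 598 and 615 UMIs). Of 29 measured members 7 were above 0 (50.5% of all genes), 0 were past 1.5-fold higher (9.22%) and 5 lower (8.99%), with a median of -0.24 against 0.01 over all genes. The helicase ring (180 and 254 CPM; -0.50, -0.96 to -0.05), the polymerases (295 and 386 CPM; -0.39, -0.75 to -0.03) and the chromatin genes (184 and 274 CPM; -0.57, -1.02 to -0.13) were lower. Intervals of the ring (-0.16) and the chromatin genes (-0.18) included 0 by all UMIs. The polymerases (-0.27) kept an interval below 0 on that scale. No single member that could be named had an interval clear of 0, Hells at 34.6 and 61.5 CPM (-0.83, -1.88 to 0.18) and Tyms at 41.5 and 72.7 CPM (-0.81, -1.76 to 0.11) being among the lowest. Orc6 and Atad2 had the most UMIs there, at 108 and 103 CPM and at 94.5 and 123 CPM. Shares with 2 or more members were 22.4% (19.2 to 25.9%) and 28.2% (24.3 to 32.3%), both inside the neuron-like intervals. Their difference was -5.76 points (interval -10.9 to -0.68). Without thinning they were 38.5% and 35.2%, the opposite order, at median depths of 998 and 810 UMIs. No difference is read from shares that change order with depth. At 1000 UMIs per nucleus the summed ratio was -0.13.

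Endothelium-like nuclei gave 258 and 317 member UMIs, 1789 CPM in DNp63cKO and 2156 CPM in control (-0.27, -0.51 to -0.03). Of 13 measured members 3 were above 0 (48.4% of all genes), 0 were past 1.5-fold higher (12.3%) and 4 lower (14.3%). Mcm6 stood at 76.3 and 163 CPM (-1.10, -2.28 to -0.01), Pcna at 97.1 and 122 CPM (-0.33), Atad2 at 139 and 129 CPM (0.10) and Tyms at 90.2 and 95.2 CPM (-0.08). Of these 4 genes Mcm6 alone was lower beyond counting error. Nuclei with 2 or more members made up 31.1% and 37.1%, within the range of the neuron-like intervals, and 40.6% and 48.1% without thinning. The helicase ring was lower, at 305 and 524 CPM (-0.78, -1.35 to -0.23), as were the polymerases (284 and 456 CPM; -0.68, -1.28 to -0.10), while the helicase activation genes were higher on 18 and 7 UMIs (1.39, 0.06 to 2.89). By all UMIs the activation genes had 43 and 42 UMIs and an interval that included 0 (0.34, -0.31 to 0.99). The ring (-0.70, -1.03 to -0.37) and the polymerases (-0.45, -0.82 to -0.08) kept intervals below 0. Haemoglobin and other erythroid markers stood at 2081 and 1058 CPM by all UMIs, without thinning, in all 278 and 310 nuclei of the class, and their part in the ratios was not tested. Pericyte-like nuclei, 56 and 55 in number, went the other way from these classes, with 2959 CPM in DNp63cKO and 1948 CPM in control (0.60, 0.17 to 1.04, and 0.29 with all UMIs), and the unnamed clusters had 1484 and 2480 CPM.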

How the data were processed

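Both deposited matrices, 1 per pool, hold raw UMI counts that the authors left unscaled. Per the submitters' processing notes the tools were STAR 2.7.11a with STARsolo, Seurat 4.0.5 and R 4.0.5, and the build mm10, with no roles stated. The annotation and the treatment of introns were not given in the sources used here. Members and lists were chosen with earlier results of these data known.

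A nucleus needed 300 genes and no more than 5% mitochondrial UMIs (5491 and 8889 passed). Scrublet marked 0 doublets in either library and so had not worked, and the top 5% by score were removed (303 and 451), leaving 5188 and 8438. Nuclei were clustered with scanpy 1.11.5 (Leiden) on 2000 variable genes without members, other cell cycle lists, sex-linked and mitochondrial genes, at resolution 2.0, chosen after 1.0 put glia, neurons and pericytes in 1 cluster. Urothelium-like nuclei were clustered again at 0.6, with genes scaled within each library. A name needed 3 of its markers at 50 CPM or above, with a score over 0.1 relative to the 0.25 quantile of clusters (0.5 for layers). This rule replaced one based on fold against all other nuclei, which left urothelial clusters unnamed. Clusters 5 and 20, with 478 nuclei, stayed unnamed. Class cluster 2 had no own marker among its 10 leading genes against all nuclei and 3 against nuclei of other names.

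UMIs were summed per group and library after thinning to 700 per nucleus (numpy 2.4.6, scipy 1.17.1, pandas 2.3.3, python 3.11.15). Ratios with intervals are of CPM. Counts and medians use log2 (CPM + 5) over genes with 20 or more UMIs. Median-of-ratios scaling differed from CPM by at most 0.05 on the log2 scale. The ratio script was tested on simulated data. Named members are those with 20 or more UMIs in the urothelium-like class, the 6 highest, lowest and most abundant in muscle and fibroblasts and the 4 most abundant in endothelium. From each other list the 6 most abundant and the 3 highest and lowest in urothelium could be named. Superficial-like values of members with fewer than 20 UMIs are given only in the plot of ratios. Gene coordinates are from GENCODE M21 (GRCm38, the assembly of mm10), promoters from RefSeq. Alternatives cover depth, doublets, filters, clustering, free RNA, sex-linked UMIs, scaling and members, and their effect is given at the end.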

Additional observations from a re-analysis of the deposited data

Results flagged for a closer look

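The summed member ratio pointed one way in basal-like urothelium and the other way in 3 classes outside the epithelium. It was 0.26 in basal-like nuclei, against -0.11 in smooth-muscle-like, -0.32 in fibroblast-like and -0.27 in endothelium-like nuclei. Pericyte-like nuclei, also outside the epithelium, went with the basal-like direction (0.60, 0.17 to 1.04). Intervals of macrophage-like (-0.42) and neuron-like (-0.09) nuclei included 0. Within the basal-like layer U2 (0.39) and U6 (0.97) were above 0, and U3 (-0.11) and U4 (-0.10) below. Each value rests on 1 library per group, and the difference between the classes was not tested.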

How the results depend on the processing

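No paired analysis was possible because each group has 1 library. Urothelium-like summed ratio was 0.02, and -0.059 at 500 UMIs per nucleus, 0.090 with all UMIs, -0.20 in nuclei with Y-linked and no Xist UMIs, 0.43 without class cluster 2 and 0.13 with sub-clusters weighted alike. Its difference in the share with 2 or more members, 0.50 percentage points, was -2.44 at 1000 UMIs and -2.14 for 1 or more members. In the Y-linked nuclei 11 of 26 measured members were above 0, against 21 of 42 in the main setting. The smooth-muscle-like share difference, -3.29 points, was -7.80 at 1000 UMIs and 1.06 with all UMIs. The fibroblast-like summed ratio was -0.13 at 1000 UMIs, -1.04 in Y-linked nuclei and -0.50 with free RNA subtracted. Its share difference, -5.76 points, was 3.27 with all UMIs. Its members above 0 were 11 of 41 measured with 5 or more UMIs and 2 of 15 with free RNA subtracted. The main setting had 7 of 29. Endothelium-like gave -0.88 in Y-linked nuclei. Its members above 0, 3 of 13 measured in the main setting, numbered 13 with 5 or more UMIs and 11 of 32 with all UMIs. Under the stricter nucleus filter or class resolution 1.0, 1 was above 0. These counts rest on differing numbers of measured members. Without scaling of genes within libraries the superficial-like ratio was 0.23 and the basal-like 0.56. The basal-like ratio was further 0.16 at 500 UMIs, -0.068 in Y-linked nuclei, 0.43 in nuclei with Xist UMIs, 0.37 without U3, 0.39 in U2 alone and 0.37 with free RNA subtracted. The cycle exit list in muscle was -0.034 with doublets kept. The cause of these shifts was not tested, except that fewer UMIs asked for, or fewer kept, alter how many genes are measured.

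Counts past 1.5-fold ranged over the alternatives from 0 to 2 higher and 0 to 8 lower in urothelium-like nuclei. They ranged from 0 to 3 and 0 to 3 in smooth-muscle-like, 0 to 2 and 4 to 10 in fibroblast-like and 0 to 5 and 3 to 12 in endothelium-like nuclei. The number of members measured differed too, so these ranges are not shifts in calls alone. The 8 lower were of 26 measured in Y-linked urothelium-like nuclei, against 42 in the main setting. The 10 lower in fibroblast-like nuclei were of 41 measured, against 29. The share of all genes past 1.5-fold is not given for these settings. The settings on shared barcodes, class resolution, class cluster 2 and U3, and all those of the basal-like and superficial-like ratios other than scaling, resolution and all UMIs, were added after seeing the data. Y-linked nuclei gave no member counts outside the urothelium, with too few members measured. With 1 library per group the depth limits single members, which rest on 31 to 337 UMIs in basal-like nuclei, and a difference between pools cannot be told apart from one between libraries.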
